A study of Mus musculus with 6 samples.

Results

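A set of 10 genes of the semaphorin signalling system were followed in bone marrow-derived monocytes (BMDM) and brainstem microglia (BSM) of the mouse: the ligands Sema4a, Sema4b and Sema4d, the plexin receptors Plxna1, Plxnb1, Plxnb2 and Plxnd1, the plexin domain protein Plxdc2, and the co-receptors Nrp1 and Nrp2. They were chosen by symbol, and all 10 were found among the 35237 genes of the Cufflinks table and the 36536 genes of the ALEXA-Seq table. The study used RNA-Seq of both cell types to look for transcripts that tell infiltrating monocytes from resident microglia. Both groups came from C57BL/6 mice of 6 weeks with no transgene and no treatment named in the labels. BMDM were FACS-sorted from bone marrow as CD11b+ CD45high CD115+ Ly6G- cells (3 libraries), and BSM from brainstem as CD11b+ CD45low CD115low Ly6G- cells (3 libraries). Each library was made from cells pooled over several mice, with males listed for replicate 1 and females for replicates 2 and 3 of both groups. FPKM are fragments scaled by the exon length of a gene and by the mapped reads of a library, so they are values per length and may be compared between genes, whereas the weight of each gene in ALEXA-Seq is not known, so these values are used to compare libraries, family sums and shares included, and not the levels of genes. Both tables were made from the same 6 libraries and are not independent.

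Semaphorins are secreted or membrane-bound proteins that were first known as guidance cues for growing axons and also act between immune cells. They bind plexins, whose intracellular domains act on small GTPases and thereby on the cytoskeleton and adhesion. Most of the secreted class 3 semaphorins need a neuropilin beside the plexin. Class 4 semaphorins such as Sema4a and Sema4d bind plexins directly and are well known from dendritic cells and lymphocytes, and Sema4d (CD100) is cleaved from the surface and acts on microglia and other glia through plexin-B receptors.

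Of these, 3 genes set the cell types far apart. Sema4a and Plxnd1 were near 0 in BSM and clearly present in BMDM, and Plxdc2 was near 0 in BMDM and among the highest genes of BSM. The RefSeq promoter windows of Sema4a and Plxnd1 (build GRCm38.p6) are shown because both genes were above trace level in BMDM only. Each line holds the 250 bases before an annotated start, 5′ to 3′ on the strand of the gene, with CpG dinucleotides in capitals. The window of Sema4a is the most upstream of its annotated starts, at chr3:88461183-88461432 on the minus strand, and that of Plxnd1 is at chr6:115995006-115995255, also on the minus strand.
Sema4a: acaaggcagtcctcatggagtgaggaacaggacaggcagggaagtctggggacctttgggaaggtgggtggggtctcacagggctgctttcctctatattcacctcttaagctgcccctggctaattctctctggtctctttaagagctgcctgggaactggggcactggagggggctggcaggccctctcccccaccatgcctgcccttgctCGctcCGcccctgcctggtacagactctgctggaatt
Plxnd1: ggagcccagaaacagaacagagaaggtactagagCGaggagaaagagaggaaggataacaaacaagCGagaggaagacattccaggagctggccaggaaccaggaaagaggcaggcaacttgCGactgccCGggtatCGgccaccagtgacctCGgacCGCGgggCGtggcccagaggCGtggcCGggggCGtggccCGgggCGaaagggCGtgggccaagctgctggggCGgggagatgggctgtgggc
The Sema4a window shown has 2 CpG and 59.6% GC, and those of its 3 other annotated starts have 6, 13 and 3 CpG and 56.4%, 64.0% and 58.0% GC. The Plxnd1 window has 16 CpG and 64.8% GC, and whether it differs from Sema4a thus depends on the start chosen. These counts stand against medians of 6 CpG and 52.4% GC over 32841 mouse windows. RefSeq windows were given for 8 of the 10 genes, 15 windows in all, and none of the 15 held GAGGAAGT (PU.1), TGACTCA (AP-1) or the PU.1-IRF composite motif on either strand. Among all windows of this length, 2.44%, 4.46% and 2.30% held these motifs, respectively.

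The libraries carried the markers of their sort. Summed FPKM of 5 monocyte markers lay between 559 and 739 in BMDM and between 0.876 and 1.598 in BSM, and that of 6 microglia markers between 17.4 and 19.8 in BMDM and between 867 and 998 in BSM. BMDM replicate 2 stood apart, with 383 for 7 neutrophil genes against 50.3 and 89.0 in the other BMDM libraries. In BSM this sum was at most 0.0714. Of these genes, Mpo was the highest in BMDM replicates 1, 2 and 3 (32.7, 181 and 67.1 FPKM). Ngp was at 2.44, 77.1 and 3.44, and Ly6g, the marker excluded in the sort, at 0, 0.293 and 0. BMDM replicate 2 also had 38.4 for 4 erythroid genes against 6.77 and 6.86. For BSM replicate 1 the study lists the lowest RNA yield and by far the lowest RNA integrity number. In this library 7.42% of the genes tested were listed at 0, against 0.801% to 1.81% in the other libraries. Summed FPKM over all genes lay between 163199 and 194184 in BMDM and between 68288 and 75021 in BSM, and the fold changes of all genes tested had a log2 median of 0.81 towards BMDM. Changes are therefore also given relative to that median. In bulk RNA, fewer cells with a transcript and less transcript per cell cannot be told apart.

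Among the ligands, Sema4a, a class 4 semaphorin that takes part in the priming of T cells, had the larger difference. Its FPKM was 10.9, 18.3 and 15.8 in BMDM replicates 1, 2 and 3, and it was listed at 0, 0.1201 and 0.185 in BSM replicates 1, 2 and 3. Every BMDM library was above every BSM library, and the lowest BMDM value was 59.0-fold the highest BSM value. The log2 fold change on the log2(FPKM + 1) scale was 3.83 ± 0.26 (SE, n = 3 per group) with an adjusted p of 2.73e-05 (limma, Benjamini-Hochberg over 6364 genes), 3.03 above the median of all genes. Sema4a passed the filter on low values through BMDM alone. The ALEXA-Seq values ran from 47.1 to 74.6 in BMDM and from 0 to 1.77 in BSM, with a log2 fold change of 4.99 ± 0.56 (adjusted p = 0.000564, limma). The gene lies at chr3:88239881-88263023 (mm9).

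Sema4d was the semaphorin with the highest level in BSM and was also high in BMDM. It had an FPKM of 15.5, 13.4 and 10.97 in BMDM and of 9.92, 9.04 and 8.64 in BSM, so that the groups did not overlap in FPKM, with the lowest BMDM value 1.11-fold the highest BSM value. The log2 fold change of 0.47 ± 0.23 did not pass the test (adjusted p = 0.111, limma), and it was 0.33 below the median of all genes. In ALEXA-Seq the groups did overlap, with 138, 184 and 140 in BMDM and 152, 132 and 120 in BSM. The mean level of 13.3 ± 2.25 FPKM in BMDM and 9.20 ± 0.656 in BSM (SD, n = 3) placed Sema4d second of the 10 genes in either cell type. It lies at chr13:51796615-51889116 (mm9).

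Sema4b, another transmembrane class 4 semaphorin, was low and overlapped between the groups, at 2.95, 4.74 and 3.42 FPKM in BMDM and 3.05, 3.31 and 2.27 in BSM. The log2 fold change of Sema4b was 0.27 ± 0.26, with a 95% confidence interval from -0.32 to 0.86 (adjusted p = 0.390, limma), and the ALEXA-Seq groups overlapped as well. A difference within that interval cannot be told from none with 3 libraries per group. Sema4b lies at chr7:87331727-87371280 (mm9).

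**Figure D1:**
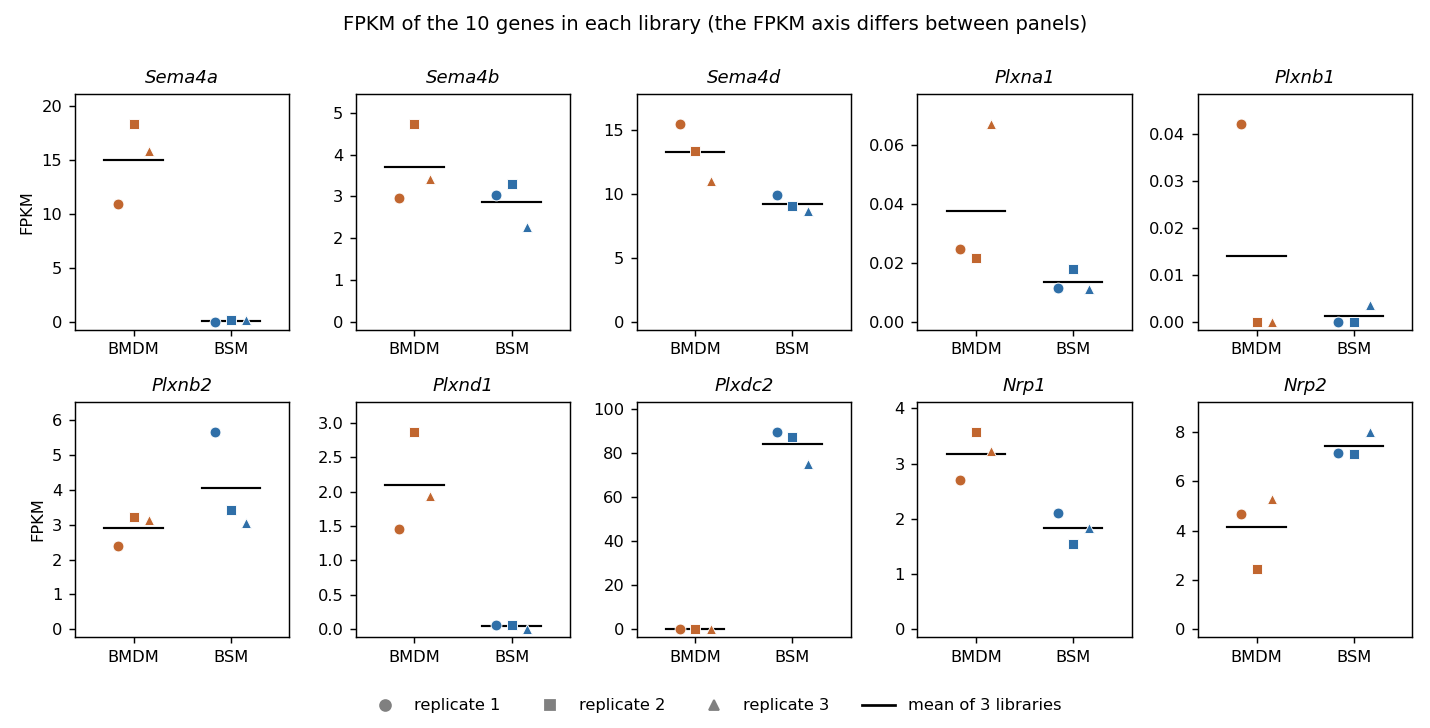
FPKM of the 10 genes in each of the 3 BMDM (orange) and 3 BSM (blue) libraries, with the symbol giving the replicate, the line the mean, and an axis of its own in each panel. Sema4a and Plxnd1 sit at or near 0 in BSM, Plxdc2 sits at or near 0 in BMDM, and the panels of Plxna1 and Plxnb1 never reach 0.07 FPKM.

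Sema4a, Sema4b and Sema4d were the only members of a family of 20 semaphorin genes in the table to reach 1 FPKM in any library, and 14 of the 20 stayed below 0.15 FPKM in all 6. No semaphorin of class 3, most of which pair with neuropilins, exceeded 0.0551 FPKM. In BMDM, Sema4a held 46.2 ± 8.16% of the summed semaphorin FPKM and Sema4d 41.6 ± 9.30% (SD, n = 3). In BSM, Sema4d held 66.7 ± 5.49% and Sema4b 20.7 ± 2.84%, and the rest was mainly Sema4g (4.37 ± 1.88%), Sema6d (3.62 ± 2.71%) and Sema4c (3.38 ± 1.08%), each below 0.8 FPKM. The summed level was 32.2 ± 3.84 FPKM in BMDM and 13.8 ± 0.845 in BSM, without overlap. The direction turned with the libraries set to the same sum of FPKM, where the semaphorins took 176 to 188 FPKM per 1000000 of the library sum in BMDM and 191 to 198 in BSM. The share of Sema4d overlapped in neither table, whereas that of Sema4b overlapped in ALEXA-Seq.

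**Figure D2:**
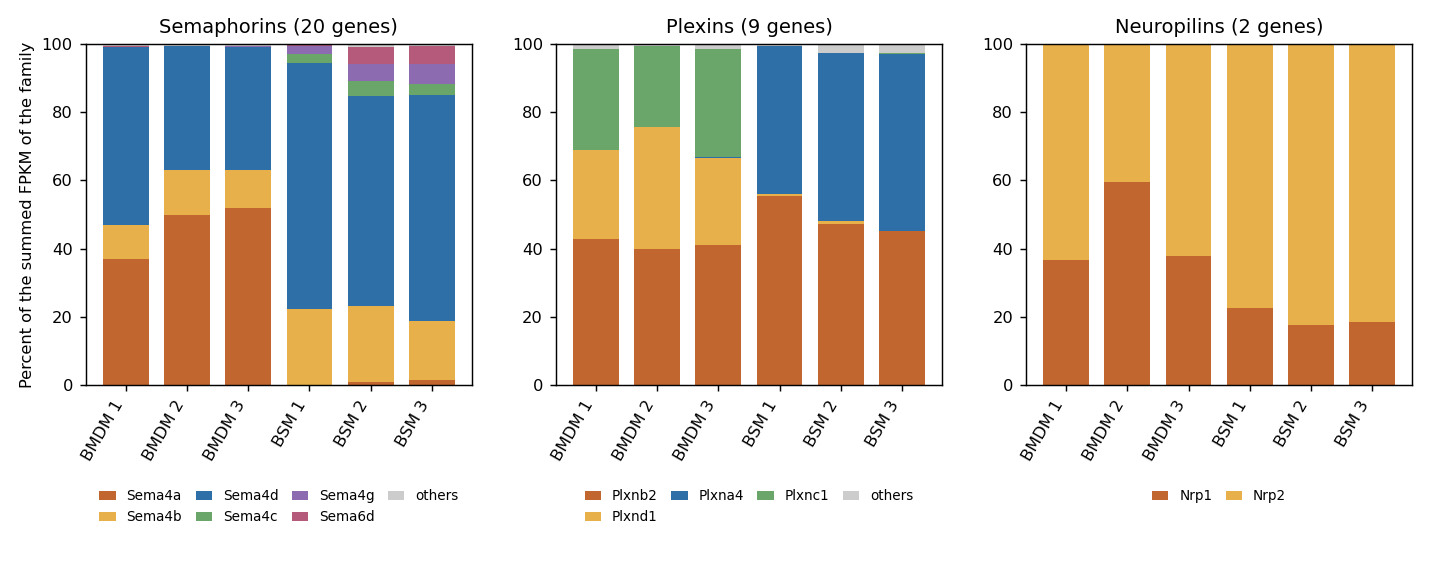
Percent of the summed FPKM of each family (vertical axis) held by its genes in each library, for 20 semaphorins, 9 plexins and 2 neuropilins. Sema4a fills 36.9% to 51.8% of the semaphorin bar in BMDM and at most 1.41% in BSM, and Plxnd1 and Plxnc1 in BMDM give way to Plxna4 in BSM beside Plxnb2 at 40.0% to 55.5% throughout.

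Among the plexins, Plxnd1, a receptor of Sema3e that also binds Sema4a, followed the pattern of Sema4a at a lower level. Its FPKM was 1.46, 2.87 and 1.94 in BMDM, and it was listed at 0.0676, 0.0624 and 0 in BSM. All BMDM libraries were above all BSM libraries, the lowest by 21.6-fold over the highest BSM value, and the ALEXA-Seq values (13.4 to 23.5 against 0.0666 to 1.11) did not overlap either. Because no library reached the minimum of 3 FPKM, Plxnd1 was tested with a minimum of 1, which it passed through BMDM alone, where its log2 fold change was 1.54 ± 0.24 (adjusted p = 0.00169, limma, 9637 genes). At that minimum the median of all genes was 0.58, and 44.9% of all genes were called. Plxnd1 lies at chr6:115904829-115945023 (mm9).

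Plxnb2, a plexin-B that binds class 4 semaphorins such as Sema4d, was found in both cell types. The FPKM was 2.39, 3.23 and 3.14 in BMDM and 5.68, 3.42 and 3.04 in BSM. BSM replicate 1 was the high library, and the other BSM libraries lay within or just above the range of BMDM. The log2 fold change was -0.34 ± 0.27 (adjusted p = 0.325, limma), and without BSM replicate 1 it was -0.12. Relative to the median of all genes it was -1.14. Plxnb2 lies at chr15:88985979-89001550 (mm9).

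Plxnb1, the high-affinity receptor of Sema4d, was at trace level throughout, with 0.0422, 0 and 0 FPKM in BMDM and 0, 0 and 0.00353 in BSM. Plxna1, a receptor that acts with neuropilins for class 3 semaphorins, was at 0.0246, 0.0216 and 0.0672 FPKM in BMDM and 0.0116, 0.0178 and 0.0110 in BSM. Neither gene was tested, and at values this low no difference between the cell types was read. For Plxna1, a near-identical match to the transcript of another gene covers 10.8% of the longest transcript, the highest share among the 10 genes. Whether that gene lies apart from the Plxna1 locus was not tested. Plxna1 lies at chr6:89268851-89312592 and Plxnb1 at chr9:108997950-109022425 (mm9).

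The 9 plexin genes had a like summed level in both cell types, at 7.10 ± 1.33 FPKM in BMDM and 8.06 ± 1.89 in BSM (SD, n = 3), with overlap in FPKM but not in ALEXA-Seq. With the libraries set to the same sum of FPKM, the plexins took 34.2 to 44.0 FPKM on that scale in BMDM and 96.4 to 148 in BSM, without overlap. Their make-up differed. Plxnb2 held 41.3 ± 1.39% of the sum in BMDM and 49.4 ± 5.41% in BSM, shares that overlapped in ALEXA-Seq. Plxnd1 held 29.0 ± 5.64% in BMDM and at most 0.862% in BSM. The remaining 28.5 ± 4.19% of BMDM was Plxnc1, the receptor of Sema7a, and the remaining 48.1 ± 4.30% of BSM was Plxna4, a receptor of class 3 and class 6 semaphorins. No other plexin reached 1 FPKM in any library.

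Plxdc2 is a membrane protein with a plexin repeat in its extracellular part and without the GTPase-activating domain of the plexins. It was the gene of the 10 with the widest difference. Its FPKM was 0.254, 0.0428 and 0.125 in BMDM and 89.8, 87.2 and 75.025 in BSM. The lowest BSM library was 295-fold above the highest BMDM library. The log2 fold change was -6.22 ± 0.22 (adjusted p = 2.50e-06, limma), and in ALEXA-Seq it was -8.62 ± 0.39 (adjusted p = 2.74e-05, limma). Plxdc2 passed the filter on low values through BSM alone. With a mean of 84.0 ± 7.89 FPKM in BSM (SD, n = 3), Plxdc2 stood at the 99.7th percentile of all genes in that cell type, and in BMDM at the 66.5th. The gene spans chr2:16277931-16677466 (mm9). Its nearest gene by the values of the 6 libraries was Siglech, a lectin of microglia and plasmacytoid dendritic cells, at a distance of 0.35 on the log2(FPKM + 1) scale, followed by Pmp22 at 0.59.

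The neuropilins, which serve as co-receptors for class 3 semaphorins and for VEGF, were expressed in both cell types, with Nrp1 higher in BMDM and Nrp2 higher in BSM in the FPKM as deposited, although Nrp1 crossed to the BSM side under the 3 other scalings described further on. Nrp1 was at 2.70, 3.58 and 3.22 FPKM in BMDM and 2.10, 1.54 and 1.83 in BSM. Nrp2 was at 4.69, 2.44 and 5.27 FPKM in BMDM and 7.15, 7.12 and 8.03 in BSM. The groups did not overlap for either gene, in FPKM or in ALEXA-Seq, although BMDM replicate 2 had the highest Nrp1 and the lowest Nrp2 of its group. Neither passed the test over all genes, and Nrp1 passed the filter on low values through BMDM alone. For Nrp1 the log2 fold change was 0.56 ± 0.24 (adjusted p = 0.0778, limma), and for Nrp2 it was -0.76 ± 0.28 (adjusted p = 0.0521, limma). Relative to the median of all genes these values were -0.25 and -1.57. Without BMDM replicate 2, Nrp2 had a log2 fold change of -0.50 (adjusted p = 0.124, limma), and without BSM replicate 1, Nrp1 had 0.63 (adjusted p = 0.0312, limma). Nrp1 lies at chr8:130883148-131027247 and Nrp2 at chr1:62749859-62865269 (mm9).

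Because Nrp1 is also a gene of endothelium, the endothelial markers were set beside it. The summed FPKM of 8 markers was between 2.38 and 4.07 in BMDM and between 1.31 and 2.92 in BSM, most of it Pecam1, which leukocytes also express. The defining markers Cldn5 and Cdh5 were at most 0.119 and 0.0199 FPKM in any library. Kdr was at most 0.0437 FPKM in BMDM and between 0.114 and 0.268 in BSM, thus higher in BSM without overlap, opposite to Nrp1 in the FPKM as deposited. Flt1, on the same list, was at 0.978, 0.794 and 1.36 FPKM in BMDM and 0, 0.00181 and 0.851 in BSM. Its mean was higher in BMDM, as for Nrp1 in the FPKM as deposited. Its groups overlapped in FPKM but not in ALEXA-Seq (8.37 to 13.3 in BMDM and 0 to 0.780 in BSM). The part of endothelial RNA in Nrp1 was not tested.

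**Figure D3:**
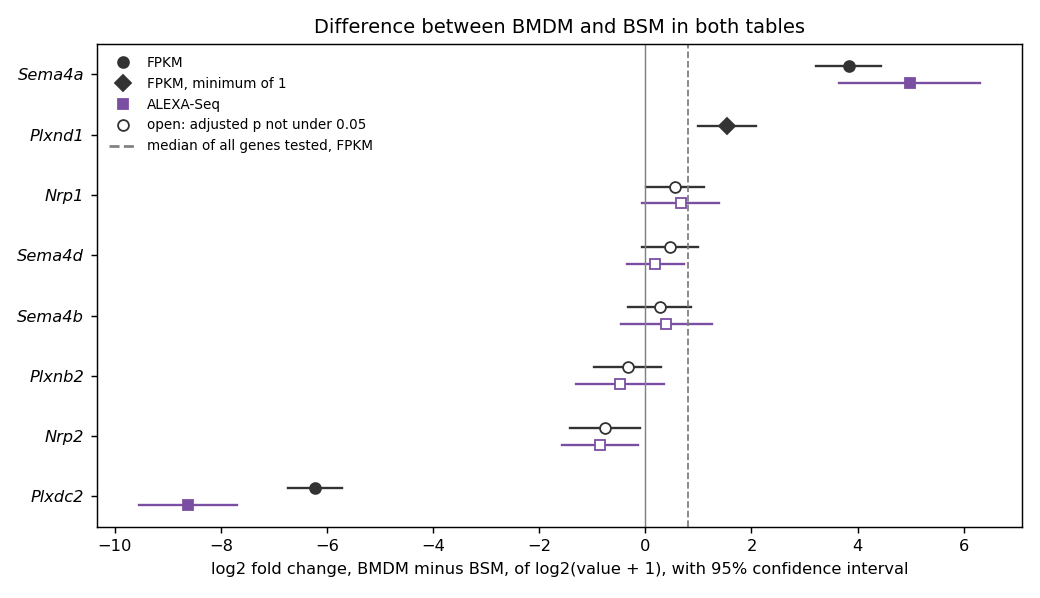
Log2 fold change of BMDM minus BSM with its 95% confidence interval for the 8 genes that could be tested, in FPKM (black) and ALEXA-Seq (purple), with filled symbols for an adjusted p under 0.05 and a dashed line at the median of all genes tested by FPKM (0.81). Sema4a and Plxnd1 lie right of the median, Plxdc2 lies far left, and the other 5 genes lie between -0.76 and 0.56 in FPKM with open symbols.

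By count, 7 of the 10 genes reached the minimum of 3 FPKM in at least 1 library, and 2 of the 7 differed, Sema4a towards BMDM and Plxdc2 towards BSM. Over all 6364 genes tested the share called was 54.5%, with 45.3% higher in BMDM and 9.22% higher in BSM. Groups without overlap were found for 5 of the 7 tested genes, where 66.8% of all tested genes had none (66.1% in ALEXA-Seq, where it was 4 of 7). With the minimum of 1 FPKM, 3 of 8 genes differed, with Plxnd1 added. In ALEXA-Seq, 2 of 7 differed, the same Sema4a and Plxdc2, beside 47.9% of all genes. The median log2 fold change of the 7 genes was 0.27, below the 0.81 of all genes.

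The direction of the smaller differences changed with the scaling of the libraries. The libraries were scaled by the upper quartile, by quantile normalization or to the same sum of FPKM, which brought the median of all genes to 0.14, 0.02 and -0.23. Sema4a (3.45, 3.26 and 3.27), Plxnd1 (1.28, 1.02 and 1.18, with the minimum of 1) and Plxdc2 (-6.74, -6.62 and -7.07) kept direction and call in all 3. Of all genes, 38.2%, 40.9% and 40.1% were called under these scalings, in the same order. Nrp2 then passed the test towards BSM, with log2 fold changes of -1.48, -1.55 and -1.88 (adjusted p from 0.00277 to 0.00791, limma). Plxnb2 did as well, with -1.001, -1.11 and -1.37 (adjusted p from 0.00864 to 0.0235, limma). Nrp1, Sema4d and Sema4b turned from BMDM to BSM under each of the 3, and of these Sema4d (-0.74) and Sema4b (-0.75) passed the test with the same sum of FPKM only. Which scaling matches the RNA content of the cells was not tested.

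**Figure D4:**
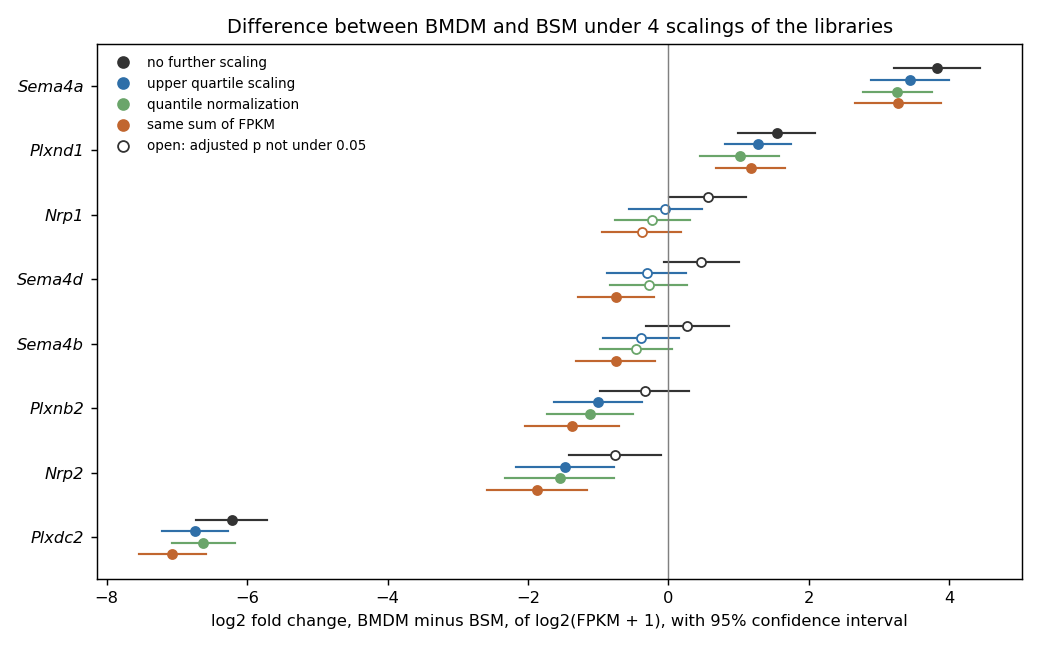
Log2 fold change of BMDM minus BSM with its 95% confidence interval for 8 genes under the FPKM as deposited and 3 further scalings of the libraries, with filled symbols for an adjusted p under 0.05. Sema4a, Plxnd1 and Plxdc2 stay on their side with filled symbols, Nrp2 and Plxnb2 become filled towards BSM, and Nrp1, Sema4d and Sema4b cross 0.

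Ratios between 2 genes of the same library are not moved by a scaling of that library, apart from the pseudocount. All 10 pairs were compared by an exact two-sided permutation test over libraries, which cannot go below p = 0.1 with 3 against 3. The groups did not overlap for 8 of the 10 pairs in FPKM, each with an exact p = 0.1 (0.125 after adjustment over the 10 pairs), and for 6 of the 10 in both tables. Among single tested genes, 66.8% had no overlap in FPKM, and no such share was computed for pairs of other genes. The pairs with Sema4a or Plxnd1 carry the wide differences of those genes. Nrp1 over Nrp2 was -0.26 ± 0.58 in BMDM and -1.58 ± 0.16 in BSM on the log2 scale (SD, n = 3), so that Nrp2 held 80.3 ± 2.68% of the neuropilin FPKM in BSM and 55.4 ± 12.8% in BMDM. BMDM replicate 2 was the only library with more Nrp1 than Nrp2 in FPKM. In ALEXA-Seq, Nrp2 held 66.2 ± 4.45% of the neuropilin sum in BSM and 40.8 ± 11.1% in BMDM. Which neuropilin leads in BMDM thus depends on the table.

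Sema4a over Sema4d was 0.15 ± 0.54 in BMDM and -3.21 ± 0.22 in BSM, so in FPKM the 2 ligands were at a like level in BMDM only. In ALEXA-Seq the ratio was -1.42 ± 0.12 in BMDM and -6.22 ± 0.93 in BSM, so the like level in BMDM rests on FPKM. With Sema4a near 0 in BSM, the pseudocount limits the ratio there. Sema4d over Plxnb2, a ligand and its receptor, was 1.86 ± 0.38 in BMDM and 1.05 ± 0.30 in BSM, and was positive in all 6 libraries. Sema4b over Sema4d overlapped between the groups (exact p = 0.6), as did Plxnb1 over Plxnb2 (exact p = 0.3). The 2 pairs without overlap in FPKM, Sema4d over Plxnb1 and Nrp1 over Plxna1, overlapped in ALEXA-Seq, and since the second gene is near 0 they mostly repeat the level of the first. Likewise Plxna1 over Plxnd1, without overlap in either table, mostly repeats the level of Plxnd1. For Sema4a over Plxnd1, both genes are near 0 in BSM, so the pseudocount largely sets the BSM values (-0.0944, 0.0763 and 0.244). The ratio of these genes in BSM cannot be read from them.

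**Figure D5:**
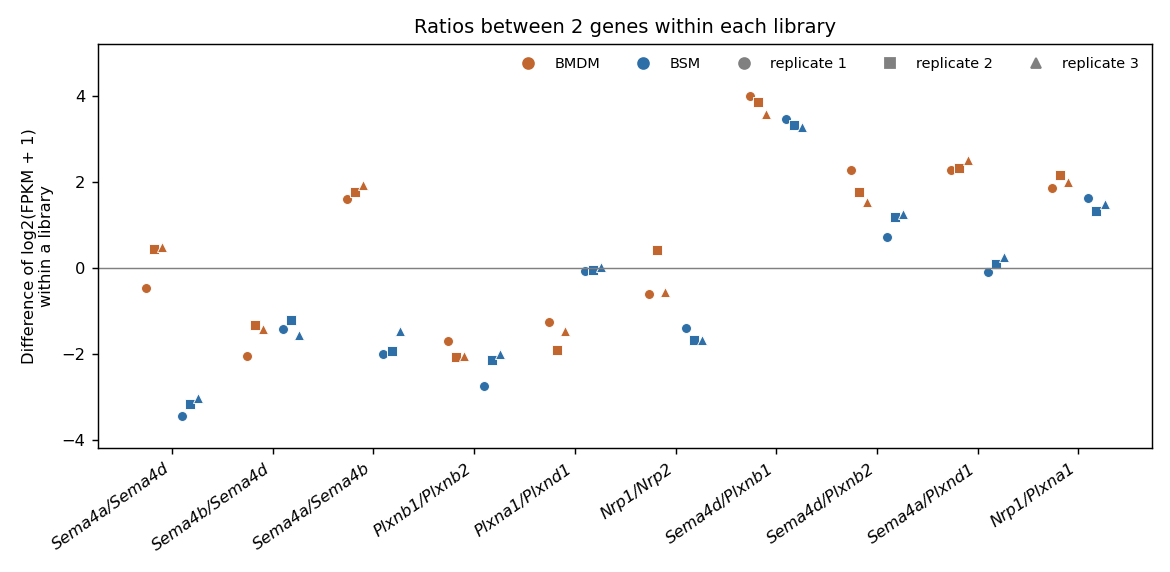
Difference of log2(FPKM + 1) between 2 genes of the same library (vertical axis) for 10 pairs, with BMDM in orange, BSM in blue and the symbol giving the replicate. The groups are apart for 8 pairs and overlap for Sema4b/Sema4d and Plxnb1/Plxnb2, and the single BMDM square above 0 for Nrp1/Nrp2 is replicate 2.

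The order of the 10 genes by FPKM differed between the cell types. In BMDM, Sema4a and Sema4d led without a gap between them, then came Nrp2, Sema4b, Nrp1, Plxnb2 and Plxnd1, each overlapping with the next, and Plxdc2, Plxna1 and Plxnb1 followed at or below 0.254 FPKM. In BSM, Plxdc2 led, followed by Sema4d and Nrp2, each apart from the next. Then came Plxnb2 and Sema4b, which overlapped, and Nrp1, which lay below both, and Sema4a, Plxnd1, Plxna1 and Plxnb1 stayed at or below 0.185 FPKM. Neighbours in this order overlapped in 7 of 9 cases in BMDM and in 3 of 9 in BSM.

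Of 61 other genes of the pathway, 15 were tested and 12 differed, 9 of them towards BMDM and 3 towards BSM, beside 54.5% of all genes called, 45.3% towards BMDM and 9.22% towards BSM. Their median log2 fold change was 1.149, against 0.81 over all genes. The split was 4 to 5 with upper quartile scaling or quantile normalization and 1 to 5 with the same sum of FPKM. Higher in BSM under every scaling were Plxna4 (4.43, 3.56 and 3.47 FPKM in BSM, at most 0.0192 in BMDM, log2 fold change -2.25 ± 0.27), the GTPase Mras (-2.44 ± 0.42) and the receptor Trem2 (-1.95 ± 0.28). Higher in BMDM under every scaling was Met, a receptor kinase that associates with plexin-B proteins, at 5.11, 5.63 and 7.85 FPKM in BMDM and at most 0.0233 in BSM (2.82 ± 0.27). Adjusted p-values of these 4 genes were between 0.000117 and 0.00216 (limma). Plxna4, Mras and Trem2 passed the filter on low values through BSM alone, and Met through BMDM alone.

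Tyrobp, the adaptor of Trem2, was at 341 ± 57.2 FPKM in BMDM and 95.4 ± 38.9 in BSM (SD, n = 3), opposite to Trem2, with a log2 fold change of 1.91, and with the same sum of FPKM it had 0.60 and was not called. The GTPases Rhoa (1.57) and Rac1 (1.38), which act downstream of plexins, were also called towards BMDM but had 0.26 and 0.09 with the same sum of FPKM. Fes, Fyn, Mical1, Tgfb1 and Arhgef11 were called towards BMDM as well, and of these only Mical1 was still called with upper quartile scaling, and none with quantile normalization or the same sum. Fes, Fyn, Mical1 and Tgfb1 had passed the filter on low values through BMDM alone. Arhgef11 turned to the BSM side with the same sum of FPKM (-0.36). Itgb1, Dpysl2 and Adam17, a protease of many surface proteins, were tested and not called in the FPKM as deposited. Under upper quartile scaling, quantile normalization and the same sum of FPKM, Dpysl2 (-1.09, -1.06 and -1.53) and Adam17 (-1.35, -1.31 and -1.80) were called towards BSM, with adjusted p at most 0.0114 and 0.0024 (limma).

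With the minimum of 1 FPKM, 26 of the 61 were tested and 16 called, beside 44.9% of all genes. Plxnc1 was among those added, at 1.66, 1.92 and 2.43 FPKM in BMDM and at most 0.0191 in BSM (log2 fold change 1.57 ± 0.21, adjusted p = 0.000836, limma). L1cam, a co-receptor beside Nrp1, was at 2.04 ± 0.604 FPKM in BMDM (SD, n = 3) and at most 0.0484 in BSM, with a log2 fold change of 1.55. Arhgef12, a guanine nucleotide exchange factor that binds plexin-B proteins, was higher in BSM (-0.75), opposite to its relative Arhgef11 in the FPKM as deposited. Plxdc1, the closest relative of Plxdc2, was at 0.703 ± 0.0557 FPKM in BMDM and 0.880 ± 0.163 in BSM and was not called in the FPKM as deposited. Plxdc1 was called towards BSM with quantile normalization (-0.63, adjusted p = 0.038, limma) and with the same sum of FPKM (-0.76, adjusted p = 0.0268, limma). Plxnc1 and L1cam passed the minimum of 1 FPKM through BMDM alone, and Arhgef12 and Plxdc1 through BSM alone.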

How the data were processed

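RNA-Seq of 6 libraries (3 BMDM and 3 BSM, grouped by the sample labels) was analysed. The authors aligned paired-end reads and deposited FPKM per gene. The submitters' processing notes name CASAVA 1.7.0, TopHat 1.3.1, Bowtie 0.12.7, Cufflinks 1.0.3 and build mm9. The authors also deposited an ALEXA-Seq expression signal per gene, whose version and normalization are not given in the sources used here. Neither table holds counts, so no count test was run. Sequencing depth is not in the tables, but the study lists mapped reads per library. From the steps between the low FPKM values, relative depth was estimated at 0.952 to 1.40 times that of BMDM replicate 1. BSM replicate 1 was the highest in both, and its listed mapped reads put it lower than this estimate. FPKM under 0.1 rest on few fragments. Starts in the tables are counted from 0 and are given counted from 1: read so, the span of 7543 out of 17788 genes equals that of GENCODE M21, and otherwise that of 265.

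Genes with at least 3 FPKM in at least 1 library (6364) were compared on log2(FPKM + 1) with limma 3.58.1 in R 4.3.3 (trend, two-sided, Benjamini-Hochberg adjustment over all genes tested, adjusted p under 0.05). A log2 fold change on this scale understates the change of low genes. The 6364 genes with the highest ALEXA-Seq signal were tested likewise on log2(value + 1). Libraries come from separately sorted pools. No library pair of a group shared identical values. The replicate number, which also carries the sex of the mice, was not used to pair libraries. The step was tested on simulated data with 200 of 6364 genes changed, where it called 0 at a log2 fold change of 1, 144 at 2 (with 10 unchanged genes) and 191 at 4 (with 12).

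Alternatives were a pseudocount of 0.1, a minimum of 1 FPKM or none, upper quartile scaling, quantile normalization, the same sum of FPKM, moderation without a trend, a replicate block, leaving out each library, and the ALEXA-Seq values. The fits of Plxnd1 at the minimum of 1, and the same sum in ALEXA-Seq, were chosen after seeing the data. Named were the 10 genes, the tested genes of a list of 61 others of the pathway, and for each of the 10 the 2 tested genes nearest to it by Euclidean distance over 6 values of log2(FPKM + 1). The 11 marker lists, of which the remaining ones cover oligodendrocytes, astrocytes, neurons, lymphocytes, perivascular macrophages and mural cells, are described under the other observations. Genes and lists were chosen with earlier results of these data known. A near-identical match was a blastn 2.17.0 match to another gene's transcript over 100 bases or more with 95% identity. Genes at the same locus were not left out, and Gm7628, matched by Plxnb1, overlaps it by 2361 bases. Tables and plots used Python 3.11.15, pandas 2.3.3, numpy 2.4.6, scipy 1.17.1 and matplotlib 3.10.9.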

Additional observations from a re-analysis of the deposited data

How the results depend on the processing

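The differences of Sema4a, Plxdc2 and Plxnd1 kept direction and call under all 15, 15 and 13 alternatives, with log2 fold changes of 3.26 to 6.32, -8.62 to -6.16 and 1.02 to 3.92, and adjusted p at most 0.00075, 0.00016 and 0.0161 (limma). Upper quartile scaling, quantile normalization and the same sum of FPKM turned Sema4b (-0.39, -0.46 and -0.75), Sema4d (-0.31, -0.28 and -0.74) and Nrp1 (-0.044, -0.23 and -0.38) to the BSM side and brought Plxnb2 (-1.001, -1.11 and -1.37) and Nrp2 (-1.48, -1.55 and -1.88) past the threshold. These scalings set the libraries to a common level, and the median of all genes moved from 0.81 to 0.14, 0.02 and -0.23 with them. Nrp1 also passed without BSM replicate 1 (0.63, adjusted p = 0.0312, limma). Nrp2 had adjusted p between 0.00277 and 0.134 over its alternatives, and Nrp1 between 0.0312 and 0.886.

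In the same order of scalings, 4, 4 and 6 of the 10 genes were called against 2, of which 3, 3 and 5 were higher in BSM against 1. With a minimum of 1 FPKM or none, 2 genes were higher in BMDM against 1. Among the other pathway genes, 4, 4 and 1 were then higher in BMDM (against 9) and 5, 5 and 5 higher in BSM (against 3), 6 in all with the same sum (against 12), and without a minimum 6 were higher in BSM. Over all genes, 1379, 1378 and 968 were higher in BMDM (against 2883) and 1051, 1227 and 1585 higher in BSM (against 587). In ALEXA-Seq these were 1201, 1439 and 843 (against 2359) and 1160, 1349 and 1920 (against 691).

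Leaving out each library in turn gave 2498 to 3932 genes by FPKM (2037 to 3194 higher in BMDM, 461 to 738 in BSM) and 1971 to 3984 by ALEXA-Seq (1452 to 3082 and 519 to 902), with the lowest without BMDM replicate 3. It gave 2 to 3 of the 10 genes, with 1 to 2 higher in BMDM (the added one was Nrp1), and 9 to 12 other pathway genes. Log2 fold changes ran from 3.68 to 4.03 for Sema4a, 0.12 to 0.39 for Sema4b, 0.36 to 0.59 for Sema4d, -0.48 to -0.12 for Plxnb2, 1.37 to 1.69 for Plxnd1, -6.30 to -6.16 for Plxdc2, 0.49 to 0.64 for Nrp1 and -0.93 to -0.50 for Nrp2.

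Among the ratios within a library, a pseudocount of 0.1 gave differences between the groups of 5.81 for Sema4a/Sema4d (against 3.36), 5.98 for Sema4a/Sema4b (against 3.56) and -3.66 for Plxna1/Plxnd1 (against -1.51). ALEXA-Seq values gave 4.80, 4.59 and -3.33 for these pairs, 0.21 for Sema4b/Sema4d (against -0.20), 0.18 for Sema4d/Plxnb1 (against 0.45), 1.25 for Sema4a/Plxnd1 (against 2.29) and 0.26 for Nrp1/Plxna1 (against 0.53). Leaving out each library gave differences from -0.34 to 0.02 for Sema4b/Sema4d and from 0.98 to 1.501 for Nrp1/Nrp2.

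With the replicate number as a block, Nrp2 had an adjusted p of 0.0551 and Nrp1 of 0.12 (limma), and the block changed no call of the 10 genes. The deviations of same-numbered libraries from their group means had a Pearson's r over genes of -0.02, -0.01 and 0.13 for replicates 1, 2 and 3, and not every library correlated best with its own number. In the simulation, with 200 genes changed, a log2 fold change of 1 was not called, whereas in the data, where 3470 genes were called, Arhgef11 was called at 0.79. FPKM of low genes carry no measure of their counting error.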

Other observations

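The genes nearest to the others in their 6 values, by Euclidean distance on the log2(FPKM + 1) scale, are given as a description. For Sema4a they were the galectin gene Lgals1 (distance 0.26, 9.73 to 18.8 FPKM in BMDM and at most 0.0575 in BSM) and Anln, an actin-binding protein of cell division (0.26). For Plxnd1 they were Ercc6l (0.23) and Lctl (0.26), for Sema4d Mllt10 (0.29) and 2810008M24Rik (0.39), and for Sema4b Becn1 and 1700020O03Rik (0.37 and 0.38). For Nrp1 they were Dazap1 and Fbxo28 (both 0.27), for Nrp2 Ccdc76 (0.41) and Gnaq (0.47), and for Plxnb2 1190005F20Rik and Osgepl1 (0.44 and 0.45). No tested gene lay within 2.07 of Plxna1 or Plxnb1, a distance largely set in advance by the minimum of 3 FPKM for tested genes.

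Summed FPKM of markers of other cells were between 7.06 and 12.8 in BMDM and 1.78 and 2.13 in BSM for oligodendrocytes, at most 0.181 for astrocytes and 0.249 for neurons in any library, and between 1.38 and 2.58 in BMDM and 0.544 and 4.14 in BSM for perivascular macrophages. For lymphocytes they were 0.345, 3.56 and 1.34 in BMDM and 0.317 to 0.486 in BSM, and for smooth muscle and pericytes at most 0.535 in BMDM and 1.31 in BSM. BMDM replicate 2, the library with the most neutrophil, erythroid and lymphocyte marker FPKM, also had the highest Sema4a, Sema4b, Plxnb2, Plxnd1 and Nrp1 and the lowest Nrp2 and Plxdc2 of the BMDM libraries. This library also had the highest summed FPKM over all genes in BMDM (194184 against 163199 and 173493). The share of all genes that were highest in it was not computed. The part of neutrophil, erythroid and lymphocyte RNA in the values of the genes was not tested. Without this library Sema4a, Plxnd1 and Plxdc2 were still called.

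Vegfa, a ligand of both neuropilins, differed among the BMDM libraries, with 0.681, 2.78 and 0.166 FPKM in replicates 1, 2 and 3 and at most 0.106 in BSM.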
